A study of Mus musculus with 10 samples.

Results

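Clec9a and 9 other genes used to recognise dendritic cells were followed in RNA-seq libraries of osteocytes, the cells embedded in bone matrix, from mice with and without myeloma. The members were taken by gene name from the deposited table of read counts and make up 10 of its 22548 genes. They were Clec9a, Xcr1, Batf3, Irf8, Flt3, Zbtb46, Itgax, Siglech, Cd209a and Clec10a. The question was which dendritic cell subset the difference in Clec9a followed.

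All mice were male C57BL/6, 8 weeks old per the labels. The 5 MM mice carried Vk12598 cells, a murine Vk*MYC myeloma line, after injection into the femur. The 5 control mice (No MM) received no myeloma cells, and the paper's methods describe controls as given PBS in the same volume. Osteocytes were released from bone pieces by repeated collagenase and EDTA digestion after the marrow had been removed, and 1 stranded total RNA library was made per mouse. The mice are called by their label numbers, No MM 1 to No MM 5 and MM 6 to MM 10, and the numbers match no mouse of one group with a mouse of the other. Such a preparation is a bulk sample, so fewer cells of a type and less RNA per cell cannot be told apart.

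Dendritic cells capture antigen and present it to T cells, and they arise in bone marrow from precursors that carry the receptor tyrosine kinase FLT3. Type 1 conventional dendritic cells (cDC1) depend on the transcription factors IRF8 and BATF3, carry CLEC9A and XCR1, and present material from dead cells to CD8 T cells. Type 2 conventional dendritic cells (cDC2) favour CD4 T cell responses, and plasmacytoid dendritic cells (pDC), which carry SIGLECH in mice, make type I interferon.

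Each library held between 31099174 and 39466332 counted reads. The smallest detectable number, taken as 3 counts, corresponded to 0.0709 to 0.114 CPM. CPM is reads per 1e+06 reads counted, after each library's total was multiplied by its TMM factor, which scales libraries to one another. Osteocyte markers were present in every library, but the libraries No MM 3 and No MM 4 stood apart. Their summed level over 14 osteocyte genes was 1795 and 1155 CPM, against 6484 to 21339 in the other 8. Immunoglobulin genes took 26.56% (95% Wilson interval 26.55 to 26.57) and 28.97% (28.96 to 28.99) of their reads, against 0.637 to 3.86% in the other 8. Their summed level over 10 plasma cell genes was 11491 and 11900 CPM, against 652.6 to 1362 in the others. The members' fold changes, the ratios and the list medians are therefore given with and without them. Their part in the results with all 10 libraries was otherwise not tested.

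Clec9a was higher in MM, and no other member separated the groups. Its level was 1.30, 4.45, 2.75, 3.56 and 3.72 CPM in No MM 1 to No MM 5, on 34, 158, 85, 98 and 152 reads. In MM 6 to MM 10 it was 5.33, 8.59, 7.84, 9.21 and 7.36 CPM, on 206, 318, 332, 334 and 283 reads. The highest control, No MM 2, lay below the lowest MM library, MM 6, and No MM 1 was the lowest of all. The means were 3.15 ± 1.20 CPM in No MM and 7.67 ± 1.48 CPM in MM (SD, n = 5 each), a log2 fold change of 1.28 (SE 0.33) in edgeR's quasi-likelihood test (Benjamini-Hochberg adjusted p = 0.315). Without No MM 3 and No MM 4 the log2 fold change was 1.26 (SE 0.39) by the same edgeR test (adjusted p = 0.643). Leaving out controls cannot make groups that are apart overlap, so the separation was not checked by it. DESeq2 gave 1.30 with an adjusted p of 0.0185.

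Over all 16186 genes tested, 0% passed an adjusted p under 0.05 in edgeR, and the same held over the 16600 genes tested without No MM 3 and No MM 4. At an unadjusted p under 0.05, 617 genes (3.81%) were higher and 1664 (10.3%) lower in MM. Without those libraries, 417 (2.51%) were higher and 560 (3.37%) lower. All 5 MM libraries lay above all 5 No MM libraries for 118 genes (0.729%), and 1 of the 10 members was among them. DESeq2 called 31 genes higher (0.176%) and 176 lower, and Clec9a was the 1 member among them. Clec9a was one of the genes that drew attention in these same libraries, so its difference here is not independent evidence. The paper also reports higher Clec9a mRNA, relative to control osteocytes, in osteocytes of further myeloma-bearing mice. Those mice are not among the libraries used here, and that result was not tested.

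**Figure D1:**
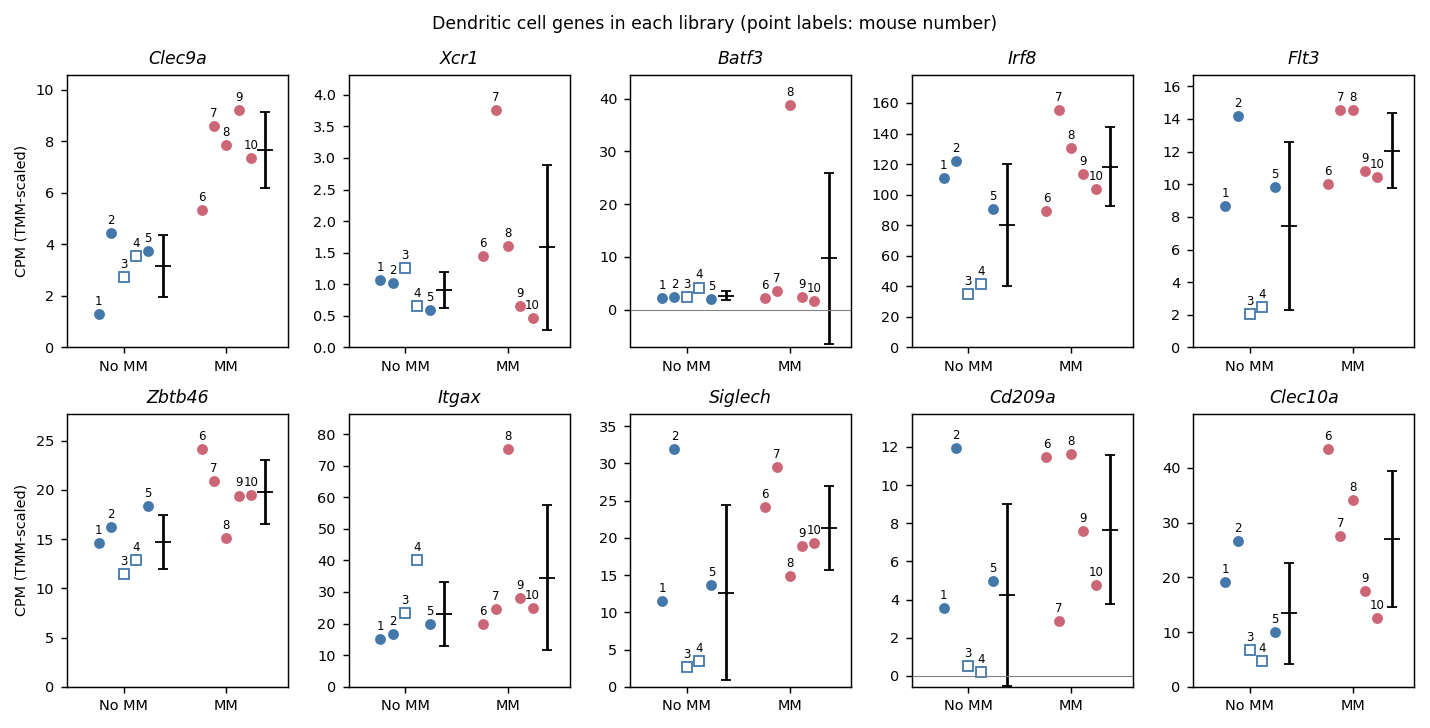
TMM-scaled CPM of each member in each library, with mouse numbers beside the points, No MM in blue and MM in red, open squares for No MM 3 and No MM 4, and black bars for the mean ± SD of 5 mice. Only the Clec9a panel shows MM points (5.33 to 9.21 CPM) all above the No MM points (1.30 to 4.45 CPM), while the Batf3 and Itgax panels show 1 high point, MM 8.

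CLEC9A is a C-type lectin-like receptor that binds actin filaments exposed by dead cells. Its gene (ENSMUSG00000046080) lies on the plus strand of chromosome 6 from 129408862 to 129424764 of GRCm38, between Clec1b and Clec1a in a cluster of lectin receptor genes. The first exon of Clec9a-201, 1 of 7, runs to 129409045 and lies wholly inside an exon of Clec1b-204, a retained-intron transcript of the neighbouring gene on the same strand. That exon extends from 129405107 to 129409335, so 184 of the 3293 exonic bases of Clec9a (5.59%) are shared, and reads from them could be assigned to either gene or to none. The coding part of Clec9a exon 1, chr6:129408955-129409045 on the plus strand, is shown because it lies inside that Clec1b exon. Its start codon is in capitals, and the coding label applies to Clec9a only.
Clec9a exon 1 coding: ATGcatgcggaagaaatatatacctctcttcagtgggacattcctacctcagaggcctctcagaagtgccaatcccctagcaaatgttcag

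Clec1b, which encodes the platelet receptor CLEC-2, was far higher than Clec9a but had overlapping groups. Its level ranged from 12.5 to 62.1 CPM in No MM and from 19.5 to 92.4 CPM in MM, with a log2 fold change of 0.67 (edgeR adjusted p = 0.514), and 0.25 (edgeR adjusted p = 0.843) without No MM 3 and No MM 4. The log2 ratio of Clec9a to Clec1b inside a library was -3.32 ± 1.17 in No MM and -2.67 ± 0.59 in MM (SD, n = 5 each), and its ranges overlapped. Without No MM 3 and No MM 4 the No MM mean was -3.90 ± 1.18 (SD, n = 3), and the ranges still overlapped. The part of the shared bases in the Clec9a counts was not tested.

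The deposited table lists 8 genes within 100 kb of Clec9a, of which 6 were tested. All 6 had log2 fold changes above 0, as did 47.3% of all tested genes, and all had overlapping groups. Clec7a, the beta-glucan receptor dectin-1, had a median of 44.8 CPM in No MM and 83.3 CPM in MM, with a log2 fold change of 0.71 (edgeR adjusted p = 0.343). Without No MM 3 and No MM 4 it was 0.51 (edgeR adjusted p = 0.650). The values for the others were 0.52 for Clec12a, 0.86 for Clec12b, 0.17 for Clec1a and 0.65 for Olr1, the oxidised LDL receptor. These became 0.02 for Clec12a, 0.75 for Clec12b, 0.12 for Clec1a and 0.25 for Olr1 without No MM 3 and No MM 4. Tmem52b and 4922502D21Rik had at most 8 and 4 reads in any library and were not tested.

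The other cDC1 receptor, XCR1, binds the chemokine XCL1 released by NK cells and CD8 T cells. Xcr1 (ENSMUSG00000060509, chromosome 9, 123852315 to 123862029, minus strand) was at 1.07, 1.01, 1.26, 0.653 and 0.588 CPM in No MM 1 to No MM 5, on 18 to 39 reads. In MM 6 to MM 10 it was at 1.45, 3.76, 1.61, 0.662 and 0.468 CPM, on 18 to 139 reads. MM 7 stood highest, and MM 9 and MM 10, both high for Clec9a, lay inside or below the control range. Xcr1 had a log2 fold change of 0.79 (SE 0.53) with edgeR (adjusted p = 0.4996), and of 0.82 without No MM 3 and No MM 4, and 0.19 without MM 7. Clec9a and Xcr1 therefore did not rank the MM libraries alike. The difference of Xcr1 was smaller than the spread between mice.

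Per kilobase of gene length the 2 receptors also differed in level. Mean RPKM was 0.958 ± 0.365 for Clec9a and 0.206 ± 0.064 for Xcr1 in No MM (SD, n = 5). In MM it was 2.33 ± 0.45 for Clec9a and 0.357 ± 0.294 for Xcr1. Xcr1 had the lowest mean RPKM of the members in both groups. Irf8 had the highest, at 23.1 ± 11.5 in No MM and 34.1 ± 7.38 in MM. In No MM the order below Irf8 was Clec10a at 5.76, Itgax at 5.70, Siglech at 5.50, Batf3 at 3.73, Cd209a at 2.86, Zbtb46 at 2.77, Flt3 at 1.42 and Clec9a at 0.958 RPKM. Among these 8, the mean ± SD ranges of neighbours overlapped, although genes further apart, such as Zbtb46 at 2.77 ± 0.51 and Clec9a at 0.958 ± 0.365, did not overlap in this way. In MM, Clec9a at 2.33 and Flt3 at 2.30 RPKM did not differ beyond their spread.

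The upstream bases of both receptor genes and of Itgax are shown because an AP-1 motif is in the bases of Itgax and in neither of the receptor genes' bases. RefSeq (GRCm38.p6) gives windows from 250 bases before to 50 after a start for 9 of the 10 members. The 250 upstream bases are printed 5′ to 3′ on the gene's strand: Clec9a from chr6:129408612-129408861 (plus), Xcr1 from chr9:123862030-123862279 (minus) and Itgax from chr7:128129300-128129549 (plus). Capitals mark the motif TGANTCA, the AP-1 site that BATF proteins bind with JUN partners.
Clec9a upstream: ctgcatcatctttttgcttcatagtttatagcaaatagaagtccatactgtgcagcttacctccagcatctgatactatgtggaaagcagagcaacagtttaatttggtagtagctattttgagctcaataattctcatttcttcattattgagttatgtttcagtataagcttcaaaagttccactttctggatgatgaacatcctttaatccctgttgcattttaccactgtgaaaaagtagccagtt
Xcr1 upstream: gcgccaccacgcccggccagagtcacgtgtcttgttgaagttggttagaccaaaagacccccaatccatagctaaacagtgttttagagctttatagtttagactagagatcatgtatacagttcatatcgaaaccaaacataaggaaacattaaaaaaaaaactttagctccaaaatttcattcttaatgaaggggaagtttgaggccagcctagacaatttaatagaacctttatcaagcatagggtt
Itgax upstream: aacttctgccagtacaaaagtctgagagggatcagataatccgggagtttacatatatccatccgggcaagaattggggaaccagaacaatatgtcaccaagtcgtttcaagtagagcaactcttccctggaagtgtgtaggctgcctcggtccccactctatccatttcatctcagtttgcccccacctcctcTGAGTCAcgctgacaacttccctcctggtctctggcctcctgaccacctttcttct

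TGANTCA, searched on both strands, was found in the windows of Itgax and Zbtb46 and in 7.81% of all 32851 windows. The letters GAAA, the core of sites for IRF factors, directly before TGANTCA occurred in 0.125% of windows and, among members, in 1 window of Zbtb46 at a RefSeq start inside the gene. That match overlaps the TGANTCA match of Zbtb46. A pair of GAAA 2 bases apart occurred in 3.44% of windows and in none of the members'. The printed Clec9a bases also lie inside the Clec1b-204 exon. These matches describe letters in a window and say nothing on binding.

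Batf3 and Irf8 encode the transcription factors on which cDC1 depend, and neither separated the groups. Batf3 (ENSMUSG00000026630, chromosome 1, 191098414 to 191108943, plus strand) was at 2.25, 2.39, 2.46, 4.17 and 2.01 CPM in No MM 1 to No MM 5. It was at 2.28, 3.51, 38.8, 2.43 and 1.59 CPM in MM 6 to MM 10. A single library, MM 8, with 1640 reads, lay far above the rest, and the other 4 MM libraries fell within or below the control range. The log2 fold change of 1.87 (SE 0.87; edgeR adjusted p = 0.363) was 2.09 (SE 1.13; edgeR adjusted p = 0.643) without No MM 3 and No MM 4 and became -0.12 without MM 8, and the ratio of the group medians was 1.01.

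Irf8 (ENSMUSG00000041515, chromosome 8, 120736358 to 120756694, plus strand), which is also active in pDC, monocytes and B cells, was at 111, 122, 35.0, 41.7 and 90.8 CPM in the No MM libraries. The MM libraries were at 89.1, 155, 131, 113 and 103 CPM. No MM 3 and No MM 4 were the lowest libraries, and the other 3 controls lay among the MM values. For Irf8 the log2 fold change was 0.56 (SE 0.34; edgeR adjusted p = 0.463) and fell to 0.11 (edgeR adjusted p = 0.842) without these libraries.

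Zbtb46 (ENSMUSG00000027583, chromosome 2, 181387762 to 181459426, minus strand), a transcription factor of conventional dendritic cells as a class, was at 14.6, 16.2, 11.4, 12.9 and 18.4 CPM in No MM. Its MM values were 24.1, 20.9, 15.1, 19.4 and 19.5 CPM. Only MM 8 lay within the control range, and the other 4 MM libraries lay above it. Its log2 fold change was 0.43 (SE 0.19; edgeR adjusted p = 0.346), and 0.25 (SE 0.19; edgeR adjusted p = 0.664) without No MM 3 and No MM 4. Clec9a and Zbtb46 were the 2 members with an unadjusted p under 0.05, where 3.81% of all tested genes were higher at that threshold. Endothelial and erythroid cells can also express Zbtb46.

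Flt3 (ENSMUSG00000042817, chromosome 5, 147330741 to 147400489, minus strand), the receptor for the cytokine that drives dendritic cell development, was at 8.65, 14.2, 2.04, 2.47 and 9.83 CPM in No MM. In MM 6 to MM 10 Flt3 was at 9.99, 14.5, 14.5, 10.8 and 10.4 CPM. No MM 3 and No MM 4 were again lowest, and No MM 2 lay among the highest. The fold change of Flt3 on the log2 scale was 0.70 (SE 0.49; edgeR adjusted p = 0.514), and 0.13 (edgeR adjusted p = 0.843) without them.

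Itgax (ENSMUSG00000030789, chromosome 7, 128129547 to 128150656, plus strand) encodes CD11c, an integrin of dendritic cells and of many macrophages. It was at 15.2, 16.6, 23.4, 40.2 and 19.9 CPM in No MM and at 19.7, 24.7, 75.1, 28.1 and 24.8 CPM in MM. MM 8 was highest, as for Batf3, and No MM 4 second. On the log2 scale the fold change was 0.58 (SE 0.40; edgeR adjusted p = 0.512) with all libraries, 0.98 (SE 0.43; edgeR adjusted p = 0.643) without No MM 3 and No MM 4, and 0.08 without MM 8. Itgax thus replaced Zbtb46 beside Clec9a as the 2 members under 0.05 unadjusted without those controls, where 2.51% of all tested genes were higher.

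Siglech (ENSMUSG00000051504, chromosome 7, 55768178 to 55778925, plus strand), the pDC lectin, was at 11.5, 31.9, 2.65, 3.45 and 13.7 CPM in No MM. Values in MM were 24.2, 29.5, 14.9, 18.9 and 19.3 CPM. The highest library of all was a control, No MM 2, and the lowest were No MM 3 and No MM 4. With edgeR, Siglech had a log2 fold change of 0.75 (SE 0.58; edgeR adjusted p = 0.554), and 0.15 (edgeR adjusted p = 0.880) without these.

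The cDC2 lectins Clec10a and Cd209a also had overlapping groups and smaller log2 fold changes without No MM 3 and No MM 4. Clec10a (ENSMUSG00000000318, chromosome 11, 70156197 to 70170834, plus strand), which binds galactose-type sugars and is also expressed by macrophages, was at 19.1, 26.6, 6.66, 4.79 and 9.92 CPM in No MM. In MM it was at 43.4, 27.6, 34.2, 17.5 and 12.6 CPM. MM 6, MM 7 and MM 8 lay above all controls, and MM 9 and MM 10 did not. Its log2 fold change of 1.01 (SE 0.49; edgeR adjusted p = 0.378) was 0.52 (edgeR adjusted p = 0.689) without No MM 3 and No MM 4.

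Cd209a (ENSMUSG00000031494, chromosome 8, 3743395 to 3748984, minus strand), a mouse relative of DC-SIGN carried by cDC2 and monocyte-derived cells, was at 3.54, 11.9, 0.517, 0.218 and 4.97 CPM in No MM. In MM it was at 11.5, 2.86, 11.6, 7.61 and 4.79 CPM. Both groups spanned a wide range, and the highest value was again in No MM 2. Cd209a had a log2 fold change of 0.85 (SE 0.85; edgeR adjusted p = 0.657), and 0.15 (edgeR adjusted p = 0.923) without No MM 3 and No MM 4.

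All 10 members had log2 fold changes above 0, against 47.3% of all tested genes. Lists of other blood cells were much the same. Above 0 were 10 of 10 megakaryocyte, 14 of 15 macrophage, 12 of 13 T and NK cell and 11 of 12 B cell genes. So were 11 of 12 neutrophil and 10 of 12 monocyte genes, but 0 of 10 plasma cell genes. For 6 members No MM 3 and No MM 4 were the lowest 2 of the 10 libraries, and 7 members moved nearer to 0 without them. The median over the 9 members other than Clec9a was 0.75 with all libraries and 0.25 without, beside -0.03 and -0.02 over all tested genes. None of the 10 members passed an adjusted p under 0.05 in edgeR, with or without these controls.

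**Figure D2:**
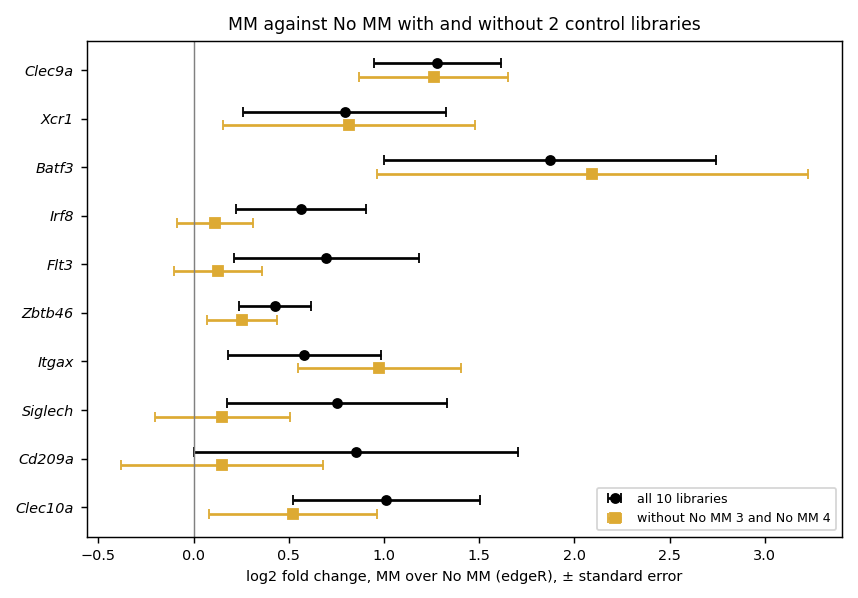
The edgeR log2 fold change of each member, MM over No MM, with its standard error as a bar, from all 10 libraries (black circles) and without No MM 3 and No MM 4 (yellow squares). Clec9a stays at 1.28 and 1.26, while Irf8, Flt3, Siglech and Cd209a move to between 0.11 and 0.15.

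The ratio of Clec9a to each other member was taken inside each library, where a gene that moves with Clec9a gives alike ratios in both groups. The log2 ratio of Clec9a to Siglech was -1.54 ± 1.52 in No MM and -1.46 ± 0.52 in MM (SD, n = 5 each). To Clec10a it was -1.90 ± 1.32 and -1.70 ± 0.92, and to Flt3 -0.96 ± 1.39 and -0.65 ± 0.28. The ratio to Xcr1, the other cDC1 receptor, was 1.67 ± 0.96 and 2.56 ± 1.16. To Zbtb46 it was -2.29 ± 0.67 and -1.37 ± 0.48, and to Itgax -2.87 ± 0.71 and -1.997 ± 0.71. With all 10 libraries the ranges of the groups overlapped for all 9 members. No MM 1 gave the lowest ratio to 8 of the 9 genes. Several of these means turned on No MM 3 and No MM 4, which gave high ratios to Irf8, Flt3, Siglech, Cd209a and Clec10a. In the other 3 controls the mean was -2.60 ± 0.65 for Siglech, -2.60 ± 1.21 for Clec10a and -1.08 ± 0.58 for Cd209a (SD, n = 3), and these ranges still overlapped with MM. The ratio to Irf8 was then -6.36, -4.76 and -4.59 in No MM, below the MM range of -4.17 to -3.61. The ratio to Flt3 was -2.69, -1.66 and -1.39, below the MM range of -0.90 to -0.23. The mean was thus higher in MM by 1.30 for Irf8 and 1.26 for Flt3, whose ranges lay apart. For the other 7, whose ranges overlapped, it was higher by 0.53 for Batf3 to 1.24 for Cd209a, with 1.16 for Zbtb46 and 1.14 for Siglech. Clec9a by itself also separated the groups, and the share of all genes with ratios apart in this way was not computed. Whether ranges apart are particular to Irf8 and Flt3 was therefore not tested. Leaving out these controls was chosen for the ratios after seeing the data, and no ratio was tested.

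**Figure D3:**
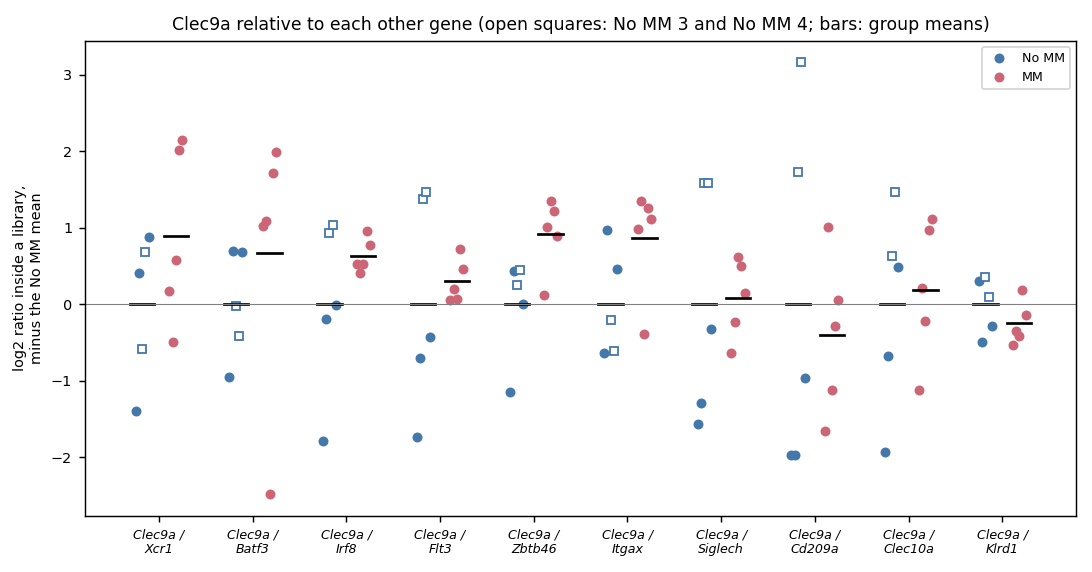
Log2 ratio of Clec9a to each other gene inside each library, shifted so that the No MM mean is 0, with black bars for the group means and open squares for No MM 3 and No MM 4. Ranges of the groups overlap for every gene with all libraries, and for Irf8 and Flt3 the overlap rests on the open squares, without which No MM reaches -4.59 and -1.39 as unshifted ratios and MM starts at -4.17 and -0.90.

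Pearson's r with Clec9a on log2 CPM was taken after the mean of each group had been subtracted, over 10 libraries that share depth and preparation, and is a description with no test. Among the 9 other members it ran from -0.25 for Clec10a to 0.31 for Itgax. The value was -0.14 for Xcr1, 0.11 for Batf3, 0.00 for Irf8, 0.09 for Flt3 and 0.13 for Siglech. Without No MM 3 and No MM 4 (8 libraries) it ran from -0.20 for Clec10a to 0.65 for Flt3, with 0.51 for Siglech and -0.11 for Xcr1. Without No MM 1 (9 libraries), the library with the lowest Clec9a, Irf8 was highest at 0.73, followed by Flt3 at 0.61 and Siglech at 0.51, and Xcr1 was at -0.08. Xcr1 stayed below 0 in each case, while the values of Irf8, Flt3 and Siglech turned on which libraries were included.

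Over the 14462 tested genes with a mean of at least 1 CPM, the 8 most like Clec9a were Npas4, Etaa1, Mbnl1, Gm4737, Ranbp9, Fli1, Zbtb18 and Lin52, with r from 0.94 to 0.96. All 8 were lowest among the controls in No MM 1, and without that library r ran from 0.76 to 0.92. None of them had separate groups, and their log2 fold changes ran from 0.12 for Ranbp9 to 1.75 for Npas4. MBNL1 is a splicing regulator and FLI1 an ETS transcription factor of blood and endothelial cells. None of the 8 is a dendritic cell gene of the lists used here.

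Klrd1 encodes CD94, a receptor subunit of NK cells, and was named after its values had been seen. Its r with Clec9a was 0.90 (rank 27 of 14462), 0.93 without No MM 3 and No MM 4, and 0.71 without No MM 1. It was at 0.88, 5.35, 1.81, 2.83 and 3.87 CPM in No MM and at 6.62, 9.32, 8.96, 6.86 and 6.95 CPM in MM, and the groups did not overlap. The log2 fold change was 1.39 (SE 0.42; edgeR adjusted p = 0.315), and 1.18 (edgeR adjusted p = 0.643) without No MM 3 and No MM 4. Without No MM 1 the member Irf8, at 0.73, was above it. Klrd1 was picked for this pattern from 13 T and NK cell genes. Over 10 libraries the other 12 had r with Clec9a from -0.60 for Cd8b1 to 0.42 for Xcl1, with 0.29 for Ncr1, -0.10 for Nkg7 and -0.50 for Prf1. Without No MM 3 and No MM 4 these ran from -0.62 for Cd8b1 to 0.57 for Ncr1. Without No MM 1 they ran from -0.04 for Gzma to 0.84 for Nkg7, which was above Klrd1, with 0.68 for Ncr1 and 0.07 for Prf1. How far Klrd1 stood out from its list thus turned on which libraries were included. The part of NK cells in the Clec9a difference was not tested.

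**Figure D4:**
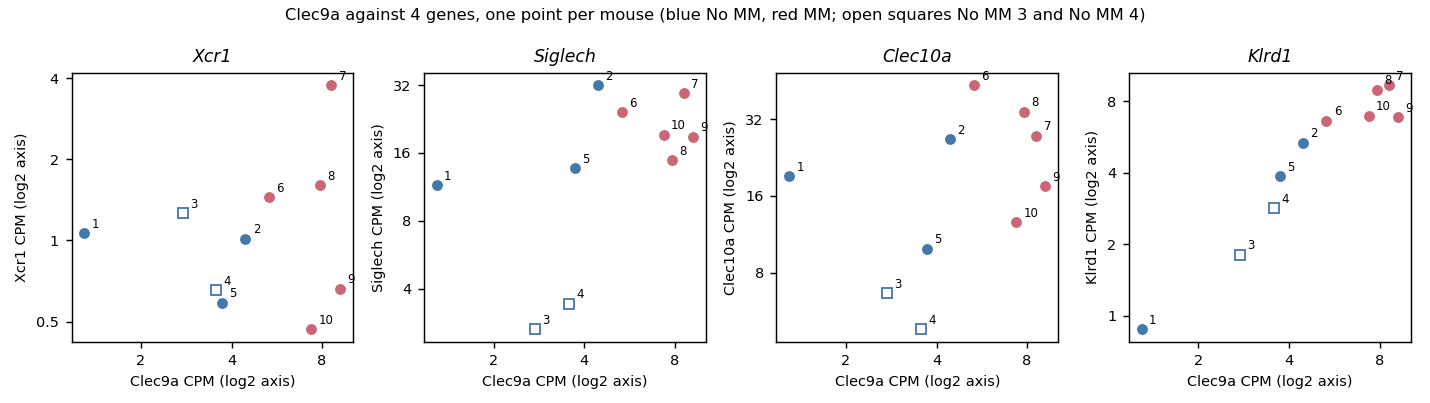
CPM of Clec9a on the horizontal log2 axis against CPM of Xcr1, Siglech, Clec10a and Klrd1 on vertical log2 axes, 1 numbered point per mouse, No MM in blue, MM in red and open squares for No MM 3 and No MM 4. Points of Klrd1 climb from No MM 1 (1.30 and 0.88 CPM) to the MM libraries, whereas Xcr1 is low in MM 9 and MM 10 (0.662 and 0.468 CPM), which are high for Clec9a.

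The wider marker lists gave no subset that separated the groups. Of 21 cDC1 genes tested, 17 had log2 fold changes above 0, against 47.3% of all tested genes. Clec9a was the 1 gene with an unadjusted p under 0.05, where 3.81% of all tested genes were higher. The median log2 fold change of the 21 cDC1 genes was 0.48, and 0.21 without No MM 3 and No MM 4, against -0.03 and -0.02 over all tested genes. Their summed level was 518.2 to 752.4 CPM in No MM and 679.0 to 898.1 CPM in MM, so the groups overlapped. The upper end of the list held Batf3, Clec9a and Clnk, a signaling adaptor, at 1.11 (edgeR adjusted p = 0.378), and the lower end Sept3 at -0.41 and Nfil3, a transcription factor upstream of cDC1 development, at -0.46.

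Of 13 cDC2 genes, 8 had log2 fold changes above 0, against 47.3% of all tested genes. The list median was 0.41, and 0.15 without No MM 3 and No MM 4. The upper end held Clec4a4 at 1.04, Clec10a and Cd209a. Irf4, a factor of cDC2 and also of plasma cells, was at 1007 and 760.5 CPM in No MM 3 and No MM 4 and at 16.9 to 40.7 CPM elsewhere. Its log2 fold change of -3.68 (edgeR adjusted p = 0.315) became 0.08 without them. Mgl2 was second lowest at -0.59.

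Of 20 pDC genes, 12 had log2 fold changes above 0, against 47.3% of all tested genes. The list median was 0.14, and -0.08 without No MM 3 and No MM 4. Cd300c, a receptor of the CD300 family, led the list at 1.17 (edgeR adjusted p = 0.364) and had MM libraries (2.23 to 3.59 CPM) above all controls (0.16 to 2.11 CPM). Klra17 followed at 0.89, high in MM 8 at 81.6 CPM, and then Siglech. Ly6d, which B lineage and plasma cells also carry, was lower at -3.27 (edgeR adjusted p = 0.315) with 1313 and 1095 CPM in No MM 3 and No MM 4, and at -0.47 without them. Cyb561a3 was the other gene lower at an unadjusted p under 0.05, where 10.3% of all tested genes were lower.

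Among 7 genes shared by conventional dendritic cells, Zbtb46 was higher and Mycl lower at an unadjusted p under 0.05. Of all tested genes, 3.81% were higher and 10.3% lower at that threshold. The list median was 0.43, and 0.14 without No MM 3 and No MM 4. Mycl, a MYC relative, was at 46.0 and 14.6 CPM in those libraries and at 2.08 to 4.32 CPM elsewhere. Of the 13 tested genes of mature, CCR7-positive dendritic cells, Fscn1, an actin bundler, was lower at -2.04 (edgeR adjusted p = 0.315), and at -0.75 (edgeR adjusted p = 0.643) without No MM 3 and No MM 4. The median of these 13 genes was 0.13, and -0.08 without them.

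Of 17 tested genes that act with these receptors, 3 were higher and 1 lower at an unadjusted p under 0.05, where 3.81% of all tested genes were higher and 10.3% lower. Flt3l alone was higher at that threshold without No MM 3 and No MM 4, where 2.51% of all genes were, and none of the list was lower. Flt3l, the ligand of FLT3, was at 4.72, 6.59, 9.08, 11.8 and 10.8 CPM in No MM and at 14.3, 12.2, 13.5, 12.3 and 11.8 CPM in MM. No MM 4 reached the lowest MM value, and the other controls lay below. The log2 fold change of Flt3l was 0.58 (SE 0.26, edgeR adjusted p = 0.349), and 0.78 (edgeR adjusted p = 0.643) without No MM 3 and No MM 4. Xcl1, the ligand of XCR1, had a log2 fold change of 0.98 (edgeR adjusted p = 0.353), and 0.69 (edgeR adjusted p = 0.658) without them. Card9, an adaptor downstream of SYK-coupled lectins, was at 0.95 (edgeR adjusted p = 0.315) and 0.74 (edgeR adjusted p = 0.643). Tapbp, tapasin of the MHC class I loading complex, was lower at -0.87 (edgeR adjusted p = 0.325) and at -0.30 (edgeR adjusted p = 0.720) without them. The list median was 0.22, and 0.19 over the 18 genes tested without them.

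Markers of other cells were summed beside the members. The median log2 fold change was 0.77 over 12 B cell genes, 0.69 over 10 megakaryocyte genes, 0.46 over 12 monocyte genes, 0.39 over 13 T and NK cell genes, 0.36 over 15 macrophage genes and 0.19 over 12 neutrophil genes. Without No MM 3 and No MM 4 these medians were 0.14, 0.24, 0.09, 0.24, 0.04 and -0.34. None of the B cell, megakaryocyte, macrophage and neutrophil genes had an unadjusted p under 0.05 in either direction. All 10 plasma cell genes were lower in MM at that threshold (10.3% of all tested genes), with a median of -2.11. Without No MM 3 and No MM 4 1 of them, Mzb1, was lower (3.37% of all tested genes), with a list median of -0.41. Every summed level overlapped between the groups, and no marker in these 6 lists was at 0 in any library. Among T and NK cell genes, Ncr1, Klrd1 and Xcl1 were higher at an unadjusted p under 0.05 (3.81% of all tested genes), and Ncr1 and Klrd1 without No MM 3 and No MM 4 (2.51% of all tested genes). Ncr1, the NK receptor NKp46, had a log2 fold change of 1.40 (edgeR adjusted p = 0.315). Among monocyte genes, Ccr2 at 1.08, Ms4a4c at 1.13 and Nr4a1 at 0.86 were higher at that threshold with all libraries, and 0 of 12 were without No MM 3 and No MM 4. MM 8, where Batf3 and Itgax stood out, also had the highest macrophage, monocyte and cDC1 sums. The part of these cell types in the members' values was not tested.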

How the data were processed

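Osteocyte RNA-seq libraries, 1 per mouse, were grouped by the labels into 5 No MM and 5 MM. The submitters' processing notes name FastQC 0.11.5 and STAR; the counting program, genome build and annotation are not given in the sources used here. The authors deposited read counts per gene, which were analyzed. The authors also deposited a signal, the counts after scaling by library, and FPKM values, neither used. The deposited log2 fold changes and p-values are the authors' own comparison and were not used. Coordinates are those of the deposited table; GENCODE M21 (GRCm38) holds 22284 of its 22548 identifiers, and 9 of 10 members had the same start and end within 2 bases (Batf3 did not).

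Counts were filtered with filterByExpr of edgeR 4.0.16 (R 4.3.3), normalized by TMM and compared by the quasi-likelihood test (glmQLFit, glmQLFTest) without covariates, with Benjamini-Hochberg adjustment over all 16186 genes and a threshold of 0.05. Correlations used log2 CPM with a prior count of 2. RPKM was CPM per kilobase of the listed gene length. The scripts were tested on simulated data. P-values measure the spread between these mice. Intervals and limits cover counting error only.

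Alternatives were DESeq2 1.42.0, RLE and upper quartile factors, immunoglobulin genes left out, no filter, at least 10 counts in every library, each mouse left out, and No MM 3 and No MM 4 left out. Leaving out No MM 1 from the correlations was chosen after seeing the data. Members and lists were chosen with earlier results of these data known. The rule for named genes took the members, in each list the 3 genes with the largest and the 2 with the smallest log2 fold change (not all are printed), the genes within 100 kb of Clec9a and the 8 genes most like it; other list genes, such as Klrd1, Flt3l and Ly6d, were named after their values were seen.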

Additional observations from a re-analysis of the deposited data

Results flagged for a closer look

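Dixon's ratio, the gap between the end library and its nearest neighbour divided by the range of the group, was above its 95% critical value for a group of 5 (0.71) in 5 of 48 sets of values, where chance alone gives about 2.4. In MM, Batf3 was at 38.8 CPM in MM 8, with the next library at 3.51, and Itgax was at 75.1 CPM in MM 8, with the next at 28.1. Batf3 in No MM was at 4.17 CPM in No MM 4, with the next at 2.46. The summed level of the pDC genes was 800.6 CPM in MM 7, with the next MM library at 584.9. The summed level of the osteocyte genes was 21339 CPM in MM 6, with the next at 10671.

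The cause of the high Batf3 and Itgax values in MM 8 was not tested. That library also had the highest levels of Klra17 (81.6 CPM) and Syk (482.6 CPM).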

How the results depend on the processing

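The log2 fold change of Clec9a was above 0 and its unadjusted p under 0.05 under all 17 alternatives. It ran from 1.08 without No MM 1 to 1.44 without No MM 2, and its adjusted p from 0.0185 with DESeq2, where the log2 fold change was 1.30 and past the threshold, to 0.656. DESeq2 called 31 genes higher and 176 lower, against 0 and 0 in edgeR, and gave Batf3 no p-value. Batf3 reversed to -0.12 without MM 8, and its other fits with 1 mouse left out reached 2.15. The other 8 members kept their direction under every alternative that gave a value; Xcr1 fell to 0.19 without MM 7 and Itgax to 0.08 without MM 8. The filter of 10 counts in every library removed Cd209a. Zbtb46 had an unadjusted p under 0.05 in 8 of 17 alternatives, Batf3 in 5, Clec10a in 3, Itgax in 2 and Siglech in 1. The cDC1 median moved to 0.21 and the shared conventional dendritic cell median to 0.14 without No MM 3 and No MM 4. The mature dendritic cell median ran from -0.19 (without MM 6) to 0.25 with 1 mouse left out. The highest r of another member with Clec9a moved from 0.31 to 0.65 without No MM 3 and No MM 4 and to 0.73 without No MM 1. Genes with an unadjusted p under 0.05 numbered 291 to 1276 higher and 939 to 2376 lower with 1 mouse left out, and 968 higher with DESeq2. The causes of these shifts were not tested. The study's text speaks of a paired differential analysis, whose pairs are not in the labels. No paired analysis was possible because mice are numbered 1 to 5 in No MM and 6 to 10 in MM, with no number in common. Among tested genes named, depth limits those with few reads, such as Clec12b, Clec4a4, Clnk, Cd300c, Cd209a and Xcr1, with reads down to 1, 2, 5, 5, 6 and 18 in a library.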
